A study of Mus musculus with 18 samples.

Results

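The transcriptomes of LYVE1+CX3CR1+ and MHCII+CD11c+ macrophages, sorted from the mouse knee synovium 8 h after an intravenous dose of immune complexes (ICs), were compared across all expressed genes. Members were the 3 libraries labelled LYVE1+CX3CR1+ with IC and the 3 labelled MHCII+CD11c+ with IC, taken by their labels, of 18 macrophage libraries from wild-type mice on the C57BL/6 background. The ICs were ovalbumin bound by anti-ovalbumin IgG, given to wild-type mice, and each library held cells pooled from several mice, so that differences between individual mice were not measured. LYVE1+CX3CR1+ cells were gated as MHCII-negative, Ly6C-negative, LYVE1-positive and CX3CR1-positive, and MHCII+CD11c+ cells as positive for MHC class II and CD11c. The transcripts of these surface proteins were therefore linked to the gate, and their differences check the labels rather than add a result. The 3 untreated libraries of each subset, from wild-type mice that received no IC, served for the same comparison without IC, and the 6 libraries of MHCII+CD11c- cells entered only the shared estimate of the spread.

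LYVE1+CX3CR1+ macrophages form the lining of the synovium, the layer that faces the joint cavity, where they clear debris and form a cell sheet joined by tight-junction proteins. MHCII+CD11c+ cells are interstitial mononuclear phagocytes that carry the machinery to display antigen to T cells. Both engage IgG-containing ICs through Fcγ receptors, of which most activate the cell through Fcer1g and the kinase Syk, whereas Fcgr2b inhibits it.

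The LYVE1+CX3CR1+ IC libraries held 1796782, 1914406 and 2047260 counts assigned to genes, and the MHCII+CD11c+ IC libraries 671244, 1306815 and 1614423, so that every library of the former was deeper than every library of the latter. A single count stood for 0.48 to 0.564 on the counts-per-million scale (CPM, adjusted between libraries by the trimmed mean of M values) in the former and for 0.609 to 1.54 CPM in the latter. The untreated libraries of the same subsets held between 1509070 and 2172358 counts. A principal component analysis used the 500 genes with the largest variance over these 12 libraries. Its leading component held 81.8% of the variance of those genes, not of all genes. It placed the 6 LYVE1+CX3CR1+ libraries between 33.5 and 41.9 and the 6 MHCII+CD11c+ libraries between -39.5 and -36.2.

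Labels were checked by the sort markers first. *Lyve1*, a hyaluronan receptor (7: 110850607 to 110862953 in GRCm38.p6), was measured at 3220, 3170 and 3550 CPM in the LYVE1+CX3CR1+ IC libraries and at 1000, 1050 and 1230 CPM in the MHCII+CD11c+ IC libraries. *Vsig4*, a complement receptor of lining macrophages that the gate did not use (X: 96247201 to 96293438), stood at 2110, 1930 and 1740 CPM against 102, 91.2 and 140 CPM. *Itgax*, which encodes CD11c (7: 128129526 to 128150657), stood at 1.69, 0 and 8.16 CPM against 383, 273 and 357 CPM. The groups did not overlap for any of these markers, and all 6 libraries had the order that their labels give, although *Lyve1* was far from absent in MHCII+CD11c+ cells. *Cx3cr1* was measured at 778, 729 and 696 CPM against 74, 134 and 144 CPM. Among 12 pan-macrophage genes, 5 were higher in LYVE1+CX3CR1+ cells and 1 was lower, with *Csf1r*, *Adgre1* and *Cd68* higher by 0.93, 0.69 and 0.82 on the log2 scale, and *Ptprc*, which encodes CD45, lower (log2 fold change -1.56).

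**Figure D1:**
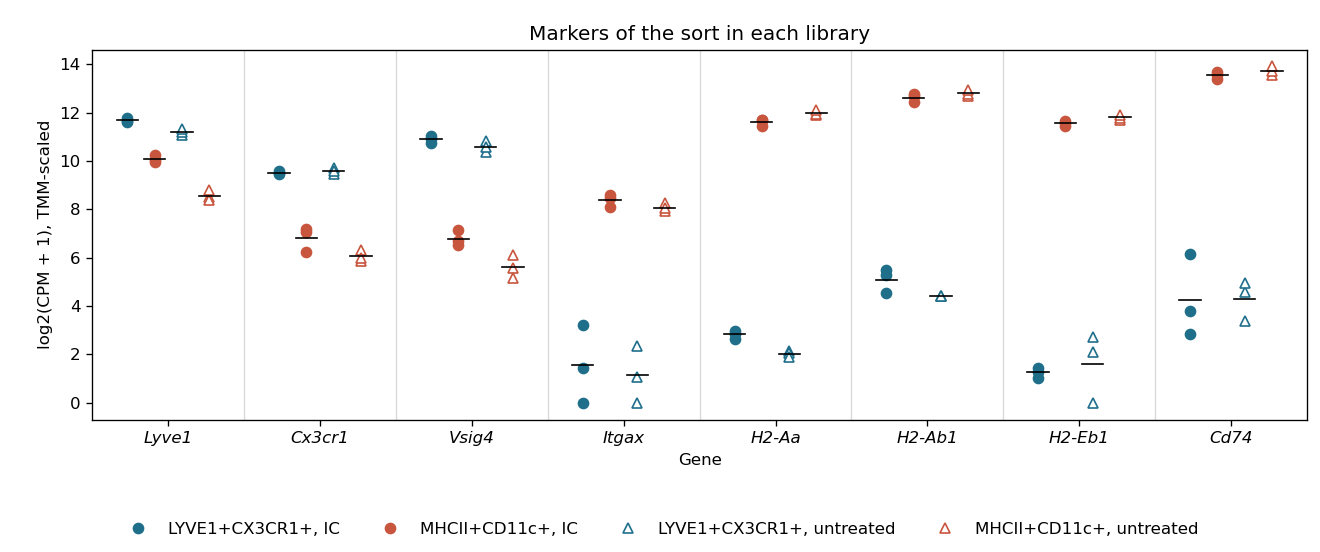
Level of 8 sort and antigen presentation genes in each library as log2(CPM + 1), with circles for libraries with IC, triangles for untreated libraries and a black bar for the mean of 3 libraries. *Lyve1*, *Cx3cr1* and *Vsig4* lie higher in LYVE1+CX3CR1+ libraries and the other 5 genes lie higher in MHCII+CD11c+ libraries, with no overlap between subsets in either condition.

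Of 10550 genes tested, 2081 differed between the subsets with IC (19.7%; edgeR quasi-likelihood test, Benjamini-Hochberg adjusted p under 0.05). In LYVE1+CX3CR1+ cells, 866 genes were higher (8.21% of those tested) and 1215 were lower (11.5%). The counts of gene list members given below are to be read beside these shares. The larger differences lay on the MHCII+CD11c+ side. A fitted difference of at least 8-fold was reached by 52 genes that were higher in LYVE1+CX3CR1+ cells and by 385 that were lower, against 552 and 888 at 2-fold. Of the 1215 lower genes, 96 had no count in any LYVE1+CX3CR1+ IC library, whereas 5 of the 866 higher genes had none in any MHCII+CD11c+ IC library. The median log2 fold change was 1.20 over the higher genes, -1.73 over the lower genes and -0.04 over all genes tested. The 3 values of a group lay wholly above or below the 3 of the other for 4012 genes (38.0%), of which 2015 were among the 2081. In bulk libraries, fewer cells of a type and less RNA per cell cannot be told apart.

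**Figure D2:**
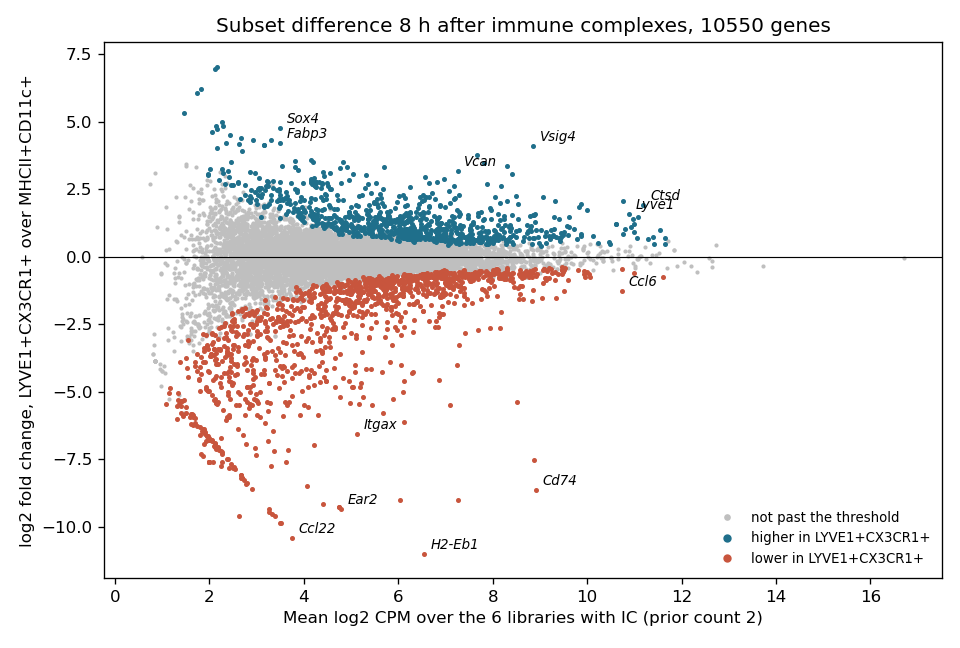
Mean log2 CPM over the 6 IC libraries against the log2 fold change of LYVE1+CX3CR1+ over MHCII+CD11c+ for 10550 genes, with a point for each gene, colored where it passed the threshold. The lowest points reach further from 0 than the highest ones, with *H2-Eb1* at -10.99.

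When genes below a mean of 3 on the log2 CPM scale and those with overlapping groups were set aside, the largest differences toward LYVE1+CX3CR1+ cells were those of *Sox4*, *Cacna1a*, *Fabp3*, *Raet1a*, *Raet1b*, *Vsig4*, *Olfml3*, *Gdpd5*, *Ecscr* and *Gm4980*, with log2 fold changes from 3.53 to 4.78. *Sox4*, a transcription factor (13: 28948919 to 28953699), was measured at 45.7, 52.7 and 44.2 CPM in LYVE1+CX3CR1+ cells and at 0, 1.57 and 2.44 CPM in MHCII+CD11c+ cells (log2 fold change 4.78, SE 0.60, adjusted p = 1.52e-06 by edgeR). *Fabp3*, a carrier of fatty acids, stood at 50.8, 42.2 and 32.7 CPM against 0, 2.36 and 3.05 CPM. *Cacna1a*, a subunit of a voltage-gated calcium channel, stood at 26.5, 33.2 and 32.7 CPM against 3.09, 0.786 and 1.22 CPM. These 3 genes were nearly confined to the LYVE1+CX3CR1+ libraries. *Raet1a* and *Raet1b*, which encode ligands of the receptor NKG2D, had identical counts in every library and were not resolved from each other by the counting. *Olfml3*, an extracellular matrix glycoprotein, combined a large difference with a high level, at 814, 855 and 693 CPM against 35.5, 46.4 and 82.2 CPM.

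The genes with the highest levels among those at least 2-fold higher were *Ctsd*, *C1qa*, *Timp2*, *Lyve1* and *C1qc*. *Ctsd*, the lysosomal protease cathepsin D, was measured at 4610, 4530 and 4420 CPM against 1230, 1290 and 1090 CPM. *Timp2*, an inhibitor of matrix metalloproteinases, was measured at 3480, 3470 and 3740 CPM against 711, 860 and 959 CPM. *C1qa*, a chain of the complement component C1q, was measured at 3780, 4040 and 3120 CPM against 1190, 1460 and 1230 CPM. All 3 were abundant in both subsets, so that their differences were of degree and not of presence.

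In the opposite direction, the largest differences were those of *H2-Eb1*, *Ccl22*, *Cd226*, *Cd209a*, *Map4k1*, *Ccr7*, *Mucl1*, *Ccl17*, *Ear2* and *Ear12*. Of these genes, 7 had no count in any of the LYVE1+CX3CR1+ IC libraries, and for them the fold is a lower bound set against a floor of 3 counts over the group. *Ccl22*, a chemokine that attracts T cells through CCR4 (8: 94745684 to 94751388), stood at 125, 179 and 74.9 CPM in MHCII+CD11c+ cells and was at least 232-fold lower in LYVE1+CX3CR1+ cells. *Cd209a*, a C-type lectin of the DC-SIGN family, was at least 167-fold lower and *Cd226*, an adhesion receptor of lymphocytes and myeloid cells, at least 158-fold lower. *Map4k1*, a kinase of hematopoietic cells, *Mucl1*, a mucin-like gene, *Ccr7*, the receptor that leads dendritic cells to lymph nodes, and *Ccl17*, a further CCR4 ligand, were at least 145-fold, 132-fold, 128-fold and 114-fold lower. *Ear2*, a ribonuclease gene, had 3 counts in the LYVE1+CX3CR1+ group, a ratio of 712 (95% counting interval 243 to 3460). *Ear12* had the same counts as *Ear3* in every library, and reads of this gene family may have been divided between near-identical copies.

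Antigen presentation through MHC class II was compared next. This machinery holds the α and β chains of the class II molecules, the invariant chain *Cd74* that fills their groove, the exchange factor H2-DM and the transactivator *Ciita*. Of 17 class II pathway genes tested, 10 were lower in LYVE1+CX3CR1+ cells and 2 were higher, with a median log2 fold change of -4.61 (-2.91 with genes that had no count at their bound) against -0.04 over all genes. Because the gate used MHC class II, this direction was set by the sort. The chains *H2-Eb1*, *H2-Aa* and *H2-Ab1* nonetheless had counts in every LYVE1+CX3CR1+ IC library. *H2-Eb1* was measured at 1.69, 1.05 and 1.44 CPM in them against 3250, 2760 and 3080 CPM, *H2-Aa* at 6.2, 6.85 and 5.28 CPM against 3310, 2760 and 3350 CPM, and *H2-Ab1* at 22, 44.3 and 37.5 CPM against 6540, 5530 and 6950 CPM. *Cd74* was more uneven, at 6.2, 12.7 and 69.6 CPM against 12200, 10700 and 13000 CPM, with the highest value in LYVE1+CX3CR1+ replicate 3.

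The exchange factor genes *H2-DMa*, *H2-DMb1* and *H2-DMb2* had log2 fold changes of -5.25, -4.61 and -5.87, and *Ciita* had -6.97, at 2.26, 0 and 0.96 CPM against 168, 130 and 134 CPM. The list also held genes of the endosomal proteases that trim the invariant chain and antigens, and these went the other way. *Lgmn*, the asparaginyl endopeptidase legumain, was measured at 2430, 2340 and 2380 CPM against 935, 1170 and 984 CPM (log2 fold change 1.21, SE 0.16, adjusted p = 1.86e-06 by edgeR). *Ctss*, cathepsin S, had a log2 fold change of 0.49, which no longer passed without MHCII+CD11c+ IC replicate 1 (adjusted p = 0.053) or replicate 2 (adjusted p = 0.080) by edgeR.

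To show the regulatory sequence behind these genes, the promoter windows of class II genes, from 250 bases before to 50 bases after the start site, were taken from RefSeq (GRCm38.p6). Class II promoters carry a conserved Y box, an inverted CCAAT element bound by NF-Y. The letters TGATTGG, searched on both strands, were found in 2568 of 32851 promoter windows (7.82%). Of 19 genes in the class II list, 14 had a window and 8 of these held the letters. Those of the α and β chain genes *H2-Aa* (chr17:34287774-34288073, minus strand) and *H2-Eb1* (chr17:34305617-34305916, plus strand) and of the exchange factor gene *H2-DMb1* (chr17:34152941-34153240, plus strand) are shown, 5′ to 3′ on the strand of the gene. They stand for an α chain, a β chain and an exchange factor whose transcripts were far lower in LYVE1+CX3CR1+ cells. Capitals mark the 7 letters searched.
H2-Aa: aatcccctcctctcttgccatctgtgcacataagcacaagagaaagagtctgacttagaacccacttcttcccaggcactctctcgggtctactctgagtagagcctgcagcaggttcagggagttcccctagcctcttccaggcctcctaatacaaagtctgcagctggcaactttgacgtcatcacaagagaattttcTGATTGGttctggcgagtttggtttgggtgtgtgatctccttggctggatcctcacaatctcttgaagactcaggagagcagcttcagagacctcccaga
H2-Eb1: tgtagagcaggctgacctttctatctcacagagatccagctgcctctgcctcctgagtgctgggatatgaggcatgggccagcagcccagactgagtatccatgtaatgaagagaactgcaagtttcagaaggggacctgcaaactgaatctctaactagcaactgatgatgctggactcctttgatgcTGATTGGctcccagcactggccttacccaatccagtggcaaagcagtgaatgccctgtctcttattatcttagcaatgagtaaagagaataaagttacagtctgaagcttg
H2-DMb1: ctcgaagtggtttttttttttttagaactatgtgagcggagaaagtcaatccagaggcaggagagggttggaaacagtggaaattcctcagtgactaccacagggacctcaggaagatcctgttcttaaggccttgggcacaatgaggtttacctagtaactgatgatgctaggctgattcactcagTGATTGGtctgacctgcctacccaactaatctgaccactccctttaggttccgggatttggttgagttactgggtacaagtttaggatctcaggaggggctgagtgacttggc
The match began 50 bases before the start site in *H2-Aa*, 61 in *H2-Eb1* and 63 in *H2-DMb1*, and it was in the same orientation in all 3. It was also found 45 bases before the start site of *H2-Oa*, a chain of the H2-DM inhibitor H2-O, which was at least 7.54-fold lower in LYVE1+CX3CR1+ cells, and 92 before that of *H2-DMb2*. It was likewise found 59 bases before the start site of *H2-Ob*, which did not pass (log2 fold change -1.10, adjusted p = 0.0754 by edgeR), and 2 times on the other strand in the window of *Rfx5*, a regulator of class II genes, which did not pass either (0.06). The windows of *H2-DMa* and *Lgmn* did not hold these letters. A match is a description of the sequence and not a measured site.

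Genes that mark dendritic cells followed the class II genes. Of 20 tested, 18 were lower in LYVE1+CX3CR1+ cells and 1 was higher (*Tcf4*, a transcription factor), with a median log2 fold change of -5.43 (-4.88 with bounds). The count of 1 was 2 without LYVE1+CX3CR1+ IC replicate 3. The 18 included *Itgax*, whose direction was set by the CD11c gate. *Clec10a*, a galactose-binding lectin, was measured at 10.7, 5.8 and 3.36 CPM against 361, 464 and 250 CPM. *Mgl2*, its close paralog, was measured at 3.95, 4.74 and 15.4 CPM against 568, 500 and 682 CPM. The groups were far apart for both lectins. Transcription factors were part of this contrast. *Irf4*, a factor of dendritic cells and of macrophages exposed to IL-4, was lower in LYVE1+CX3CR1+ cells (log2 fold change -1.75), as were *Etv3* (-2.11) and *Runx3* (-4.29), whereas *Mef2a* (1.39), *Maf* (0.95), *Cebpa* (0.91) and *Bhlhe41* (3.31) were higher. Of 49 myeloid transcription factors tested, 9 were higher and 13 lower, and the 9 became 14 with only the libraries compared and 15 with the replicate number as a block.

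Among 29 IL-4-associated genes tested, 19 were lower in LYVE1+CX3CR1+ cells, 1, *Tgm2*, was higher and 9 did not pass, with a median log2 fold change of -2.78. Several of these genes, among them *Ccl17*, *Ccl22* and *Cd209a*, also belong to the dendritic cell list. *Retnla*, a secreted protein of alternatively activated macrophages, stood at 26.5, 50.1 and 106 CPM against 2740, 1900 and 2960 CPM (log2 fold change -5.37, SE 0.45, adjusted p = 1.74e-09 by edgeR). *Mrc1*, which encodes the mannose receptor CD206 and is often listed with them, was measured at 1970, 1890 and 1750 CPM against 2090, 2480 and 1930 CPM and did not pass.

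Monocyte genes showed the same side for 13 of 20 members, with 3 higher. The 13 included *Ly6c2*, a transcript linked to the Ly6C-negative gate of LYVE1+CX3CR1+ cells. *Ccr2*, the receptor by which monocytes follow CCL2, was measured at 15.2, 32.7 and 24 CPM against 663, 554 and 468 CPM (log2 fold change -4.54, SE 0.29). *Ms4a4c* and *Hp*, the haptoglobin gene, had log2 fold changes of -4.10 and -5.50. *Hp* stood at 57.1, 92 and 117 CPM in MHCII+CD11c+ IC replicates 1, 2 and 3, and the neutrophil marker *S100a8* rose in the same order (184, 260 and 415 CPM). *Ms4a4c* (54, 23.6 and 37.2 CPM) and *Ccr2* did not follow this order. The part of neutrophils in the values of this list was not tested. *Klf2*, a quiescence-associated transcription factor on the same list, was higher in LYVE1+CX3CR1+ cells (0.73). Ligands and receptors of T cell contact were divided, with 4 of 15 higher and 6 lower. *Havcr2*, which encodes TIM-3, and *Cd40* were higher by 2.38 and 1.28, and *Slamf7* was lower (-4.65). The count of 6 fell to 3 without MHCII+CD11c+ IC replicate 1, LYVE1+CX3CR1+ IC replicate 1 or LYVE1+CX3CR1+ IC replicate 2. Of 22 genes of MHC class I presentation, 7 were lower (31.8%, against 11.5% of all genes tested) and 15 did not pass. *Nlrc5*, the class I transactivator, had a log2 fold change of -1.96 and *Tap1*, a peptide transporter, -1.05, while *B2m*, the light chain, had 0.20 and did not pass.

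Resident lining genes formed the counterpart. Of 23 tested, 13 were higher in LYVE1+CX3CR1+ cells and 4 lower, with a median log2 fold change of 1.30. The study named several of these markers from the same subsets, so that their direction is not independent evidence. *Sparc*, a collagen-binding matricellular protein, was measured at 788, 1150 and 1230 CPM against 75.6, 76.3 and 152 CPM (log2 fold change 3.35, SE 0.33). *Trem2*, a receptor for lipids and apoptotic cells, was measured at 334, 356 and 273 CPM against 66.3, 45.6 and 99.3 CPM (2.17). *Folr2* and *Timd4*, the folate receptor and the phosphatidylserine receptor TIM-4, were higher by 1.55 and 1.91. All 4 were still detected in MHCII+CD11c+ cells. The members that were lower included the lectins *Cd209f* and *Cd209g*, with log2 fold changes of -4.28 and -3.58. The count of 4 lower members was 2 without any 1 of MHCII+CD11c+ IC replicates 1, 2 and 3 and of LYVE1+CX3CR1+ IC replicates 1 and 3.

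Junction genes were measured because the lining sheet is sealed by them. Of 12 tested, 5 were higher and 2 lower in LYVE1+CX3CR1+ cells, and 11 of the 23 listed were too low to be tested. *F11r*, which encodes JAM-A, was measured at 248, 317 and 254 CPM against 66.3, 57.4 and 79.8 CPM (log2 fold change 2.00, SE 0.24). *Jam2* was at 20.9, 15.8 and 20.2 CPM against 0, 0 and 1.83 CPM, a ratio of 22.5 (95% counting interval 7.5 to 111). The count of 5 fell to 3 without MHCII+CD11c+ IC replicate 2 or LYVE1+CX3CR1+ IC replicate 3, and the count of 2 to 0 without LYVE1+CX3CR1+ IC replicate 1 or MHCII+CD11c+ IC replicate 3, and to 1 without any other of the 6. Matrix genes were higher for 8 of 26 members and lower for 1. *Serpinh1*, a collagen chaperone, and *Plod1*, a lysyl hydroxylase, were higher by 2.74 and 1.35, while *Thbs1*, thrombospondin 1, was lower (-3.99) with values of 0.564, 25.8 and 43.2 CPM against 199, 266 and 653 CPM. Of 30 genes of the TGF-β and BMP pathway, 11 were higher and 3 lower. The receptors *Tgfbr1* and *Tgfbr2* were higher by 1.92 and 1.07, as were the intracellular inhibitors *Skil* (1.16) and *Smurf2* (1.47).

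Uptake and lysosomal genes were shifted toward LYVE1+CX3CR1+ cells. Of 69 lysosomal genes tested, 34 were higher and 2 lower, with a median log2 fold change of 0.61. *Arsb*, arylsulfatase B, was measured at 757, 754 and 893 CPM against 119, 165 and 216 CPM (log2 fold change 2.24, SE 0.23), with no overlap. The lower genes were *Gm2a* (-2.62), a lysosomal lipid transfer protein, and *Ctsh* (-1.57), cathepsin H.

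Scavenger and phagocytic receptors were higher in LYVE1+CX3CR1+ cells for 17 of 29 members and lower for 3. *Itgb5*, an integrin subunit that pairs with αv in the engulfment of apoptotic cells, was measured at 1070, 959 and 906 CPM against 137, 88.1 and 129 CPM (log2 fold change 3.06, SE 0.26). *Mertk*, a receptor tyrosine kinase for dying cells, and its ligand *Gas6* were higher by 1.58 and 1.30. *Olr1*, an oxidized lipoprotein receptor, was at 277, 119 and 166 CPM against 35.5, 37.8 and 22.5 CPM. Complement genes were divided by their role. The C1q chains *C1qa* and *C1qc* and the receptors *C3ar1* and *C5ar1* were higher in LYVE1+CX3CR1+ cells (1.49, 1.41, 1.52 and 0.79), whereas the alternative pathway genes *C3*, *Cfb* and *Cfp*, which encodes properdin, were lower (-4.60, -2.89 and -4.02). Of 19 complement genes tested, 7 were higher and 5 lower.

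Receptors for the IgG of the ICs were compared next. Among 7 genes of IgG receptors and their signaling chain, 1 was higher and 1 lower. *Fcgrt*, the neonatal Fc receptor that recycles IgG in endosomes (7: 45092993 to 45103822), was measured at 1280, 1160 and 888 CPM in LYVE1+CX3CR1+ cells against 364, 488 and 412 CPM (log2 fold change 1.39, SE 0.17, adjusted p = 1.28e-06 by edgeR). *Fcgr4*, an activating receptor for IgG2 subclasses, was measured at 3.95, 4.22 and 1.92 CPM against 24.7, 36.2 and 32.3 CPM (-3.20, SE 0.56, adjusted p = 0.000121 by edgeR). The remaining Fcγ receptor genes did not pass. *Fcgr2b*, the inhibitory receptor, was measured at 578, 547 and 469 CPM against 696, 569 and 600 CPM (-0.22, SE 0.16, adjusted p = 0.380 by edgeR). Without IC it was called lower in LYVE1+CX3CR1+ cells (-0.78, adjusted p = 0.000644 by edgeR), while its change between conditions did not pass the test given below. *Fcgr3* was at 448, 449 and 446 CPM against 549, 462 and 472 CPM (-0.14), *Fcgr1* at 119, 134 and 99.4 CPM against 133, 108 and 130 CPM (-0.07), and the signaling chain *Fcer1g* at 383, 390 and 368 CPM against 296, 324 and 308 CPM (0.30). *Fcgr3* was lower and *Fcer1g* higher in all 3 LYVE1+CX3CR1+ libraries, with no overlap, while the other 2 genes overlapped. In CPM, *Fcgr2b* stood above *Fcgr3* in both subsets. Per kilobase of all annotated exons joined (5790 bases for *Fcgr2b*, 1736 for *Fcgr3*), the order was the reverse. *Fcgr3* and *Fcgr2b* then stood at 258 ± 0.789 and 91.7 ± 9.69 CPM per kilobase in LYVE1+CX3CR1+ cells (SD, n = 3). In MHCII+CD11c+ cells they stood at 285 ± 27.4 and 107 ± 11.4. The order of the 2 genes thus depends on the length used, and the isoforms expressed were not measured.

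**Figure D3:**
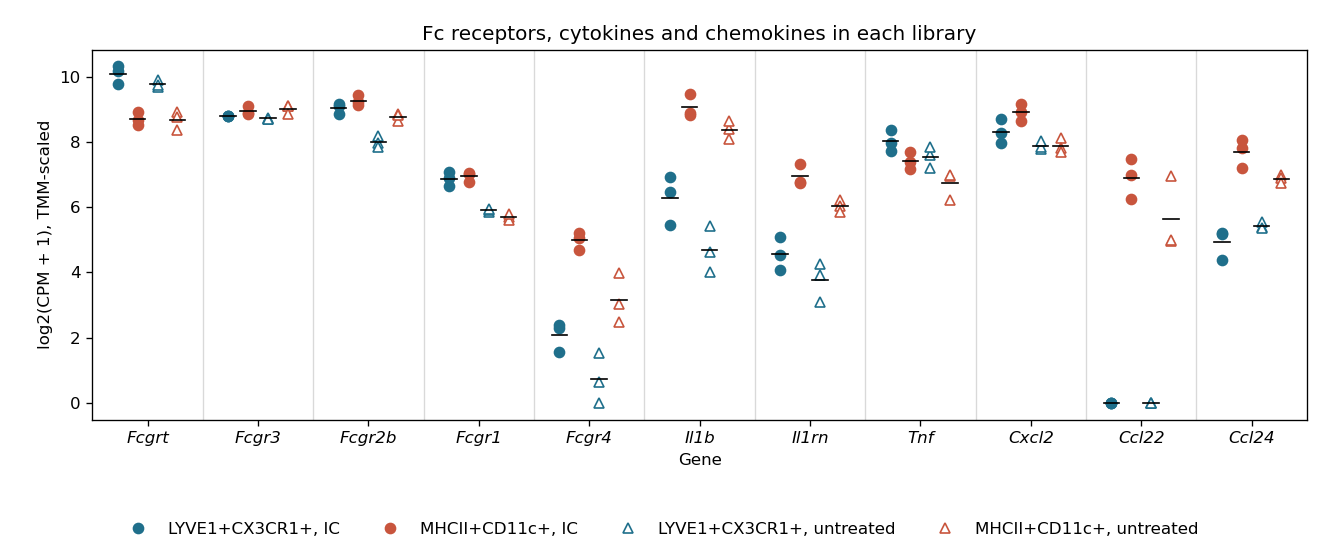
Fc receptor, cytokine and chemokine genes in each library as log2(CPM + 1), with circles for libraries with IC, triangles for untreated libraries and a black bar for the mean of 3 libraries. *Fcgr3*, *Fcgr2b* and *Fcgr1* lie close together in the 2 subsets with IC, whereas *Il1b*, *Il1rn*, *Ccl22* and *Ccl24* lie lower in LYVE1+CX3CR1+ cells.

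Downstream of these receptors, 5 of 28 signaling genes were higher in LYVE1+CX3CR1+ cells and 8 lower. Subunits of class I phosphoinositide 3-kinase went in opposite directions, with *Pik3cg* and its regulatory subunit *Pik3r5* higher (0.95 each) and *Pik3cd* lower (-1.77). *Pik3cd* was measured at 53, 53.2 and 59.5 CPM against 185, 190 and 192 CPM. *Inpp5d*, which encodes the inhibitory phosphatase SHIP1, was higher (0.71), and the Src family kinase gene *Fgr* was lower (-1.80), as were *Prkcd* (-1.29) and *Rac2* (-1.11). The count of 8 lower genes fell to 5 without LYVE1+CX3CR1+ IC replicate 1, LYVE1+CX3CR1+ IC replicate 2 or MHCII+CD11c+ IC replicate 3. Of 23 inhibitory receptors, 11 were lower and 2, *Cd33* (1.84) and *Lair1* (1.47), were higher. *Clec4a2*, an inhibitory lectin, was at 6.2, 2.11 and 8.16 CPM against 151, 119 and 108 CPM.

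Chemokine transcripts were compared after IC. Of 21 tested, 13 were lower in LYVE1+CX3CR1+ cells and 1 was higher, with a median log2 fold change of -1.49. The 1 higher gene was *Cxcl14* (2.47, adjusted p = 0.0273 by edgeR), which passed without MHCII+CD11c+ IC replicate 1 (2.79, adjusted p = 0.0400) and did not pass without MHCII+CD11c+ IC replicate 2 (2.11, adjusted p = 0.121), MHCII+CD11c+ IC replicate 3 (2.66, adjusted p = 0.0719) or LYVE1+CX3CR1+ IC replicates 1, 2 or 3 (2.43 to 2.56, adjusted p = 0.0542 to 0.0730). *Ccl24*, an eosinophil attractant, was measured at 19.7, 36.4 and 35.1 CPM against 265, 223 and 148 CPM (log2 fold change -2.78, SE 0.25). *Ccl2*, the main monocyte attractant, was measured at 77.8, 50.1 and 85 CPM against 227, 167 and 208 CPM (-1.49, SE 0.27, adjusted p = 0.000217 by edgeR). *Cxcl13*, a B cell attractant, was at 0, 0 and 0.48 CPM against 23.1, 14.9 and 57.3 CPM, a ratio of 207 (95% counting interval 36.5 to 8230). The neutrophil attractants *Cxcl1* and *Cxcl2* did not pass. *Cxcl1* was measured at 73.3, 41.1 and 80.7 CPM against 60.2, 40.9 and 50.6 CPM (0.38, SE 0.44) and *Cxcl2* at 421, 250 and 311 CPM against 486, 398 and 577 CPM (-0.57, SE 0.21, adjusted p = 0.0513 by edgeR), and the groups overlapped for both. The call for *Cxcl2* depended on the processing: its log2 fold change was -0.38 to -0.76 over the alternatives and its adjusted p 0.00499 to 0.324, passing under 8 of 12, among them without LYVE1+CX3CR1+ IC replicate 1 (adjusted p = 0.0227 by edgeR) or MHCII+CD11c+ IC replicate 2 (adjusted p = 0.0487 by edgeR).

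A list of chemokine receptors and related receptors was higher in LYVE1+CX3CR1+ cells for 6 of 13 members and lower for 3. It also held *S1pr1*, *S1pr2*, *S1pr4*, *Cmklr1* and *Gpr183*, of which *S1pr1* and *Cmklr1* were among the 6. Besides *Cx3cr1*, which was linked to the gate, *Ccr1* was higher by 1.25. *S1pr1*, which binds sphingosine 1-phosphate, was measured at 213, 236 and 232 CPM against 47.8, 66.9 and 66.4 CPM. *Ccr7* and *Ccr2*, given above, were among the lower ones.

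Cytokine genes also differed more often toward MHCII+CD11c+ cells, with 13 of 41 lower and 4 higher. *Il1b* (2: 129364569 to 129371164) was measured at 120, 42.7 and 87.4 CPM in LYVE1+CX3CR1+ cells and at 457, 472 and 707 CPM in MHCII+CD11c+ cells (log2 fold change -2.72, SE 0.34, adjusted p = 1.28e-06 by edgeR). *Il1rn*, the IL-1 receptor antagonist, was measured at 32.7, 22.1 and 15.8 CPM against 108, 159 and 107 CPM (-2.41, SE 0.29). *Il6* was at 15.2, 2.64 and 7.68 CPM against 49.4, 42.5 and 57.9 CPM (-2.56, SE 0.54). *Il1b* and the gene of the receptor antagonist were thus lower together. *Il1a*, the other agonist gene on the list, did not pass (0.80, SE 0.53, adjusted p = 0.337 by edgeR). *Tnf* was measured at 329, 210 and 252 CPM against 167, 144 and 206 CPM, higher in all 3 LYVE1+CX3CR1+ libraries but short of the threshold (0.61, SE 0.25, adjusted p = 0.0923 by edgeR). It passed with only the libraries compared (adjusted p = 0.0126) and with the replicate number or condition and number together as a block (adjusted p = 0.0072 and 0.0205 by edgeR), and not under the other 9 alternatives. The granulocyte-macrophage colony-stimulating factor receptor chains *Csf2rb* and *Csf2ra* were lower (-2.24 and -1.16). Of 37 genes of the TNF and NF-κB response, 13 were lower and 2 higher (4 to 6 higher without the filter, with only the libraries compared or with a block), with *Traf1* at -5.39 and *Cd44* at -1.53.

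Interferon-stimulated genes were lower in LYVE1+CX3CR1+ cells for 20 of 45 members and higher for 1, with a median log2 fold change of -0.78. *Oas3* was measured at 16.9, 11.6 and 5.28 CPM against 66.3, 70.8 and 65.2 CPM (-2.59), *Oasl1* at 2.82, 12.1 and 13 CPM against 60.2, 70 and 52.4 CPM (-2.68) and *Samhd1* at 309, 278 and 233 CPM against 546, 650 and 523 CPM (-1.07). These antiviral effectors kept their groups apart. The count of 20 was 13 without MHCII+CD11c+ IC replicate 2, and the count of 1 was 0 without MHCII+CD11c+ IC replicates 1 or 3 or LYVE1+CX3CR1+ IC replicates 1 or 2.

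Mediators and receptors that link macrophages to sensory nerves differed in both directions. Of 21 pain mediators tested, 5 were higher and 8 lower. Enzymes of lipid mediators were among both. *Alox5*, 5-lipoxygenase, was measured at 476, 447 and 574 CPM against 202, 207 and 253 CPM (log2 fold change 1.17), *Ltc4s*, leukotriene C4 synthase, at 139, 113 and 108 CPM against 9.26, 23.6 and 18.3 CPM (2.73) and *Hpgds* at 112, 68.5 and 96.5 CPM against 17, 10.2 and 20.1 CPM (2.54). *Ptgs2*, cyclooxygenase 2, was lower, at 42.3, 13.2 and 6.72 CPM against 84.8, 73.9 and 105 CPM (-2.11). Of 11 nerve signal receptors tested, 3 were higher and 2 lower. The receptor for calcitonin gene-related peptide needs *Calcrl* and *Ramp1* together. *Calcrl* was higher in LYVE1+CX3CR1+ cells, at 121, 87.5 and 102 CPM against 29.3, 55.8 and 29.9 CPM (1.41, SE 0.28), and *Ramp1* was lower, at 0, 3.16 and 2.4 CPM against 30.9, 27.5 and 20.1 CPM (-3.69, SE 0.61). The 2 partners of the receptor were thus on opposite sides. *P2ry12* and *P2rx7*, purinergic receptors, were higher by 2.32 and 0.84. The count of 2 lower receptors was 1 without MHCII+CD11c+ IC replicate 3.

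**Figure D4:**
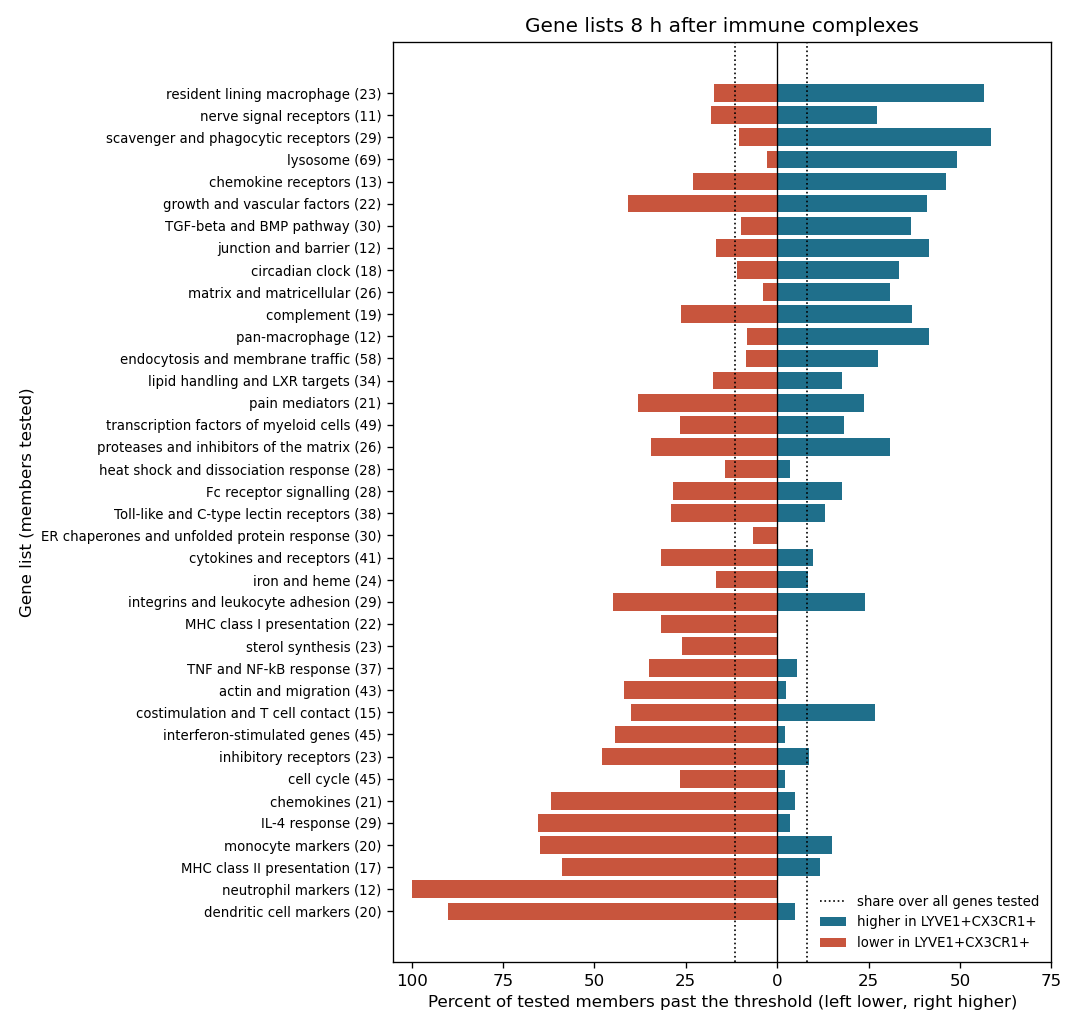
Percent of the tested members of each gene list with at least 10 tested members that were higher (right) or lower (left) in LYVE1+CX3CR1+ cells with IC, sorted by median log2 fold change, with dotted lines at the shares over all genes tested (8.21% and 11.5%). Lysosomal and scavenger lists extend to the right, and dendritic cell, neutrophil and class II lists to the left.

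Transcripts of several, but not all, other cell types were unequal between the sorted groups. All 12 neutrophil markers tested were lower in LYVE1+CX3CR1+ cells, with a summed level of 19.2 to 214 CPM against 1290 to 2870 CPM, and 3 of the 16 markers in the files, *Elane*, *Stfa1* and *Stfa2*, had no count in the 6 libraries. *S100a8* was measured at 1.13, 18.5 and 0.48 CPM against 184, 260 and 415 CPM, and it varied among the MHCII+CD11c+ IC libraries. Without IC the summed level was 20.2 to 27.5 CPM against 130 to 875 CPM. B cell markers were lower for 6 of 7 members, at 0 to 2.11 CPM against 89.5 to 94.4 CPM (3 lower with only the libraries compared or the replicate number as a block), with *Cd79b* and *Ms4a1* at 0 counts in LYVE1+CX3CR1+ IC libraries. Mast cell markers were lower for 7 of 7 members, at 0.564 to 34.6 CPM against 64.8 to 313 CPM. That count was 1 without LYVE1+CX3CR1+ IC replicate 1 or replicate 2, 2 without MHCII+CD11c+ IC replicate 2 and 4 without MHCII+CD11c+ IC replicate 3. T and NK cell markers stood at 4.74 to 5.76 CPM against 18.5 to 23.8 CPM, with *Cd3e* and *Cd3g* at 0 counts in all 6 libraries, fibroblast markers at 19.7 to 139 CPM against 48.8 to 60.2 CPM, and endothelial markers at 6.2 to 63.9 CPM against 90.4 to 238 CPM. Schwann cell markers stood at 657 to 675 CPM against 311 to 367 CPM, and erythroid and muscle markers at 4.22 to 53.6 CPM against 34.6 to 423 CPM. The ranges of fibroblast and of erythroid and muscle markers overlapped, with 1 of 7 and 0 of 7 tested members called. *Hba-a1* and *Hba-a2*, which had identical counts, stood at 156 CPM each in MHCII+CD11c+ IC replicate 1. In replicates 2 and 3 they stood at 4.72 and 9.14 CPM. Neutrophils express *Il1b*, *Cd44*, *Fgr* and *Rac2*, mast cells *Hdc*, and B cells class II genes. The part of these cells in the results for such genes was not tested.

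The subset difference was then set beside the same difference in untreated mice, on libraries that shared no sample with it. Without IC, 2303 genes differed (21.8%), of which 1000 were higher in LYVE1+CX3CR1+ cells (9.48%) and 1303 lower (12.4%). Of the 2081 genes that differed with IC, 1530 (73.5%) also differed untreated in the same direction, which is 66.4% of the untreated calls. The sign was the same for 2047 of the 2081 (98.4%). Some gene lists had close counts. Class II genes were lower for 10 members with IC and 11 untreated, of 17 tested, and chemokines for 13 and 12 of 21. Lysosomal genes were higher for 34 and 32 of 69. Others did not: mast cell markers were lower for 7 members with IC and 0 untreated, cell cycle genes for 12 and 25, interferon-stimulated genes for 20 and 15, genes of sterol synthesis for 6 and 2, and endoplasmic reticulum chaperones for 2 and 8. These differences in count were not tested as such, and gene by gene the test below called only *Vcan*. With single libraries left out, the count with IC was 1 to 6 for mast cell markers, 9 to 18 for cell cycle genes and 13 to 20 for interferon-stimulated genes.

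**Figure D5:**
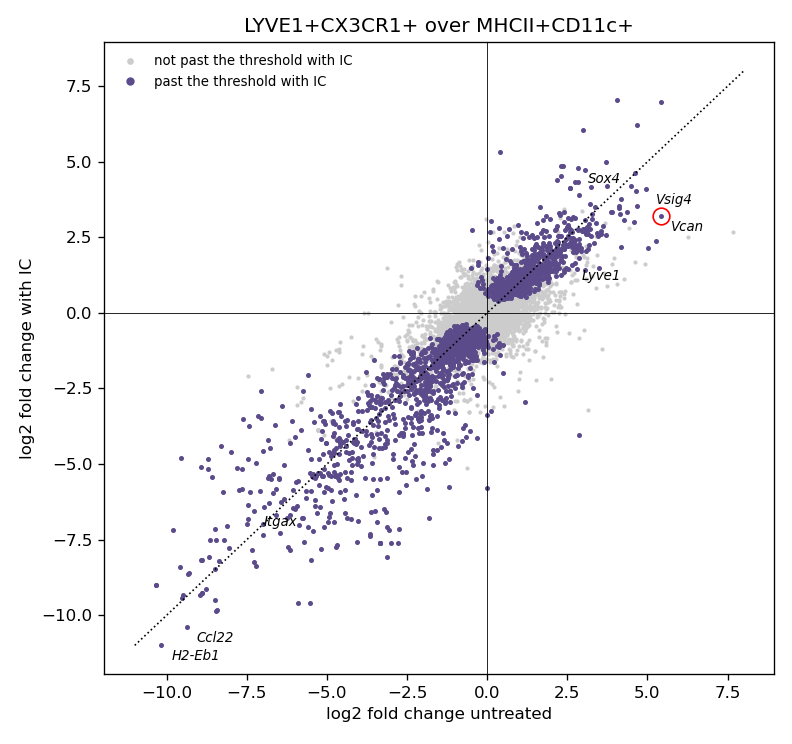
log2 fold change of LYVE1+CX3CR1+ over MHCII+CD11c+ untreated (x axis) and with IC (y axis), with a point for each gene tested and a dotted line where both are equal. Most colored points lie near the line, and *Vcan*, circled, lies below it at 5.42 untreated and 3.19 with IC.

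The test of the difference itself, the interaction of subset and IC, called 1 of 10550 genes (0.00948%; edgeR), with 474 at an unadjusted p under 0.05 (4.49%). It was *Vcan*, which encodes the proteoglycan versican (13: 89655309 to 89743027). In LYVE1+CX3CR1+ cells it was measured at 435, 396 and 560 CPM with IC and at 469, 501 and 582 CPM untreated. In MHCII+CD11c+ cells it was measured at 43.2, 45.6 and 60.9 CPM with IC and at 11, 11.8 and 13 CPM untreated. The values of LYVE1+CX3CR1+ cells overlapped between conditions and those of MHCII+CD11c+ cells did not. The subset difference was 3.19 (SE 0.23) with IC and 5.42 (SE 0.26) untreated on the log2 scale, a change of -2.23 (SE 0.33, adjusted p = 0.00501 by edgeR). Without MHCII+CD11c+ IC replicate 3 the change was -2.02 and did not pass (adjusted p = 0.116 by edgeR).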

How the data were processed

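Of the macrophage libraries, 18 from wild-type mice were used, 3 for each of 3 subsets with IC and 3 untreated. Libraries were made with a stranded total RNA kit for low input and sequenced as read pairs. The deposited values are raw counts per gene: the authors trimmed reads with Trim Galore, checked them with FastQC, aligned them to mm10 with HISAT2 and counted them with featureCounts. The strand setting, the annotation and the treatment of multi-mapping reads were not given in the sources used here, so genes that overlap or have near-identical copies are uncertain.

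Counts were tested with edgeR 4.0.16 (R 4.3.3; TMM scaling, filterByExpr, quasi-likelihood test, Benjamini-Hochberg adjustment, threshold 0.05) over all 18 libraries, which share an estimate of the spread. Contrasts were LYVE1+CX3CR1+ over MHCII+CD11c+ with IC, the same untreated, and their interaction. Per-million values are TMM-scaled CPM. The test was checked on simulated data with 200 changed genes. Folds of genes without counts in a group are bounds against 3 counts over that group, and intervals are 95% and cover counting error only. Members and gene lists were chosen with earlier results of these data known. Named genes were the sort markers, the 10 largest differences in each direction at a mean log2 CPM of at least 3 with no overlap, the 5 most abundant genes in each direction that differed at least 2-fold, up to 4 members of each list in each direction with the smallest adjusted p, up to 3 abundant members that did not pass, and the genes called in the interaction. *Ciita*, *H2-DMa*, *H2-DMb2*, *H2-Oa*, *Retnla*, *Folr2*, *Timd4*, *Fcgr1*, *Cxcl1*, *Cxcl13*, *Il6*, *Ptgs2*, *Rfx5* and *Ear3* were added after their values were seen. By the study's account each library pooled several mice, but the labels only number the libraries of a group, so p-values measure the spread between these libraries, which may in part be technical. Alternatives were DESeq2 1.42.0 size factors and its Wald test, other filters, only the libraries compared, blocks, a surrogate variable (sva 3.50.0), leaving out each library and, added after the data were seen, thinning. Fibroblast and Fcgr2b-/- libraries were not used here. Some genes are not reported here.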

Additional observations from a re-analysis of the deposited data

Results flagged for a closer look

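*Vcan* was set apart because its subset difference itself differed between conditions by a test of the interaction. The log2 fold change of LYVE1+CX3CR1+ over MHCII+CD11c+ was 3.19 with IC and 5.42 untreated, a change of -2.23 (SE 0.33, adjusted p = 0.00501 by edgeR). Over the alternatives the change ranged from -2.39 to -2.02. It was -2.24 with the DESeq2 Wald test (adjusted p = 5.51e-07, adjusted over fewer genes than with edgeR). The largest adjusted p, 0.116 by edgeR, was reached without MHCII+CD11c+ IC replicate 3. In MHCII+CD11c- cells with IC, which lay in neither arm of the contrast, *Vcan* was measured at 118, 90.4 and 186 CPM, between the ranges of the other 2 subsets.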

How the results depend on the processing

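With IC, 2102 genes were called with DESeq2 size factors, 2337 with the DESeq2 Wald test, 2141 with no filter, 2413 with only the libraries compared and 2419 with a surrogate variable. A stricter filter that kept the 3798 genes with 10 or more counts in each library, and so removed those near 0 in a subset, left 1182 calls with IC (619 higher, 563 lower) and 1291 untreated, and cut the lower counts of most lists, to 5 for class II, 1 for dendritic cell, 0 for B cell and 1 for neutrophil genes. Leaving out each library gave 1577 to 1734 calls with IC, of which 1541 to 1657 were among the 2081, and 1815 to 1960 untreated. Thinning the 6 IC libraries to 671244 counts left 1696 calls, 1608 of them among the 2081. The interaction called 11 genes with the DESeq2 Wald test, 27 with no filter, 4 with only the libraries compared and 2 with a surrogate variable, and 0 to 1 when each library was left out. DESeq2 gave no adjusted p for 8795 of the 10550 genes in the interaction, so that its 11 calls come from fewer genes than those of edgeR. Deviations from the group mean correlated weakly between libraries of the same number (0.03 to 0.09). Libraries of unlike number were not compared in this way, so that a pairing by number could not be judged. With the replicate number as a block, 2402 genes were called with IC, 3031 untreated and 8 in the interaction, and with condition and number together as a block (all 18 libraries) 2109, 2322 and 2. The log2 fold change of *Fcgr1*, which was not called, was -0.14 to 0.04 with each library left out, turning from -0.07 to 0.02 without MHCII+CD11c+ IC replicate 3, to 0.04 without LYVE1+CX3CR1+ IC replicate 3 and to 0.01 with thinned libraries. That of *Rfx5*, also not called, was -0.07 to 0.24 with each library left out and -0.27 with thinned libraries, against 0.06. With the DESeq2 Wald test, 19 cell cycle genes and 3 mast cell markers were lower with IC, against 12 and 7 with edgeR. The cause of these shifts was not tested. Depth limits genes near 1 count in the smallest MHCII+CD11c+ library.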

Other observations

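Lipid genes were divided between the subsets with IC. Of 34 genes of lipid handling, 6 were higher and 6 lower in LYVE1+CX3CR1+ cells, and 22 did not pass. The share called was 35.3%, against 19.7% over all genes tested. *Pltp*, a phospholipid transfer protein, was measured at 2800, 2610 and 2280 CPM against 1140, 1310 and 1260 CPM, and *Abca1*, a cholesterol exporter, and *Cd36*, a fatty acid receptor, were higher by 0.91 and 1.04 on the log2 scale. *Lpl*, lipoprotein lipase, was measured at 11.8, 18.5 and 31.7 CPM against 1270, 911 and 658 CPM (log2 fold change -5.49, SE 0.34). *Scd1*, a fatty acid desaturase, was lower by the same measure (-4.81). Of 23 genes of sterol synthesis and uptake, 6 were lower (26.1%, against 11.5% of all genes tested) and 17 did not pass, with a median log2 fold change of -0.34. Of 22 growth and vascular factors, 9 were higher and 9 lower: *Grn*, progranulin, was at 3200, 3050 and 3030 CPM against 1210, 1510 and 1310 CPM, and *Sema4a* had a log2 fold change of -2.60.

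Cell cycle and cytoskeleton genes lay toward MHCII+CD11c+ cells. Of 45 cell cycle genes, 12 were lower and 1, *Cdk6*, was higher (1.51), against 25 lower untreated. *Ccnd1* was measured at 6.2, 26.4 and 20.2 CPM against 116, 107 and 105 CPM, and *Rrm2*, needed to make deoxynucleotides, had a log2 fold change of -2.51. Of 43 genes of actin and migration, 18 were lower and 1, *Rhoa*, was higher (0.76), a count that was 2 without LYVE1+CX3CR1+ IC replicate 1, MHCII+CD11c+ IC replicate 2 or LYVE1+CX3CR1+ IC replicate 3. *Fscn1*, an actin-bundling protein of mature dendritic cells, had a ratio of 221 (95% counting interval 60.5 to 1830). Among matrix proteases and inhibitors, 8 of 26 were higher and 9 lower, with *Mmp19* at 19.7, 19.5 and 15.4 CPM against 369, 512 and 180 CPM.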
